A study of Mus musculus with 12 samples.

Results

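The 10 genes described here encode the immunoproteasome and the machinery that carries and loads its peptides onto MHC class I molecules: Psmb8, Psmb9, Psmb10, Psme1, Psme2, Tap1, Tap2, Tapbp, Erap1 and Nlrc5. They were taken by name from the 24558 genes of the deposited count table, each through its RefSeq transcript with the highest mean count, and all 10 passed the filter on low counts that left 12638 genes for testing. Macrophages, which are phagocytes, were the source of the RNA, and the peritoneal cavity was where they had been collected. Whether they were resident or recruited cells was not tested. The mice were female and ate either chow or a diet high in fat (HFD). Lipopolysaccharide (LPS), a cell wall component of Gram-negative bacteria, had been applied for 0 h or for 24 h. With 3 libraries for each diet at each time, there were 12 libraries in 4 groups, all female. The sources used here do not give the strain, age or genotype of the mice, the LPS dose, the make-up of the diets or whether LPS was given to cells in culture or to mice, and they do not tie the libraries of a group to separate mice. The labels hold no 24 h group without LPS. Time and LPS therefore cannot be told apart, and a change from 0 h to 24 h is called an LPS change below.

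Proteasomes cut intracellular proteins into peptides. When interferons or other inflammatory signals reach a cell, the catalytic subunits Psmb5, Psmb6 and Psmb7 can be replaced in newly built particles by Psmb8, Psmb9 and Psmb10, and the ring of Psme1 and Psme2 (PA28) can cap the particle. The transporter of Tap1 and Tap2 moves peptides into the endoplasmic reticulum, where the aminopeptidase Erap1 trims them and tapasin (Tapbp) helps to place them on class I molecules, while Nlrc5 is a transcriptional activator of class I genes.

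Library totals, with 1 transcript per gene, were lowest in HFD 0 h replicate 3, at 2360209 counts, with 9134888 as the next, and highest in HFD 24 h replicate 3, at 20688063. HFD 0 h replicate 3 also stood alone on the second principal component, at -82.13 against -5.55 or higher in the other libraries, and values without it are given beside the Tap1, Tap2 and ratio results. The labels carry a tag for lane 8 in 4 libraries only: chow 24 h replicates 1 to 3 and HFD 24 h replicate 1. Within chow, LPS cannot be told apart from that lane. Levels are given as CPM, counts relative to the TMM-scaled library total. The macrophage markers Cd68, Csf1r and Itgam had group means of 2799 to 3059, 866 to 993 and 801 to 881 CPM. Other macrophage markers changed with LPS: Lyz2, or lysozyme, fell (log2 -1.14 ± 0.14 in chow and -1.03 ± 0.14 in HFD, edgeR adjusted p = 1.07e-05 and 3.20e-05), while Adgre1, the gene of F4/80, rose (0.84 ± 0.19 and 1.57 ± 0.20, 0.0035 and 1.22e-05), as did the LPS co-receptor Cd14 (2.17 ± 0.22 and 2.22 ± 0.22, 8.27e-07 and 8.74e-07). Lineage markers of B and T cells were scarce: the 6 B cell markers summed to 4.16 to 21.9 CPM over all libraries. The 5 T cell markers found in the table summed to 1.57 to 5.32 CPM. Dendritic cell markers, mostly Itgax, summed to 152 to 895 CPM and neutrophil markers to 13.5 to 66.4 CPM. Markers of natural killer (NK) cells are given below.

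Of the 10 genes, 5 lie on chromosome 17 in GRCm38.p6, the assembly behind mm10, and 4 of these stand next to each other within the major histocompatibility complex: Psmb9 (34182030 to 34187330), Tap1 (34187556 to 34197225), Psmb8 (34198195 to 34201454) and Tap2 (34204479 to 34216321). Together they span 34292 bases, with gaps of 225, 969 and 3024 bases. Tapbp (33919478 to 33929290) lies 252739 bases before Psmb9. Psme1 (55578494 to 55581527) and Psme2 (55587440 to 55591101) are neighbours on chromosome 14, Psmb10 (105935728 to 105938392) and Nlrc5 (94434335 to 94527272) are both on chromosome 8, and Erap1 (74639573 to 74693205) is on chromosome 13. Psmb9 and Tap1 are read in opposite directions from the 225 bases between them, which are shown whole because both genes start at its ends. RefSeq's plus strand, chr17:34187331-34187555, reads as follows, with Psmb9 starting at the left edge, Tap1 at the right, and a CCAAT box in capitals.
Tap1-Psmb9 stretch: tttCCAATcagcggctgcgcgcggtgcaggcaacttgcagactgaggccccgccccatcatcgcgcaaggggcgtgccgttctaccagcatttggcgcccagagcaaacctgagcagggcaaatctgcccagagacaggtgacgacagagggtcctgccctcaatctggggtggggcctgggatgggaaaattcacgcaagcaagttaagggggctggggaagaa

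RefSeq promoter windows of 300 bases (GRCm38.p6, 250 before to 50 after the start) were found for 8 of the 10 genes, with 2 for Psme2, and not for Tap2 and Nlrc5. The window of Erap1 belongs to a transcript start at 74639853, 280 bases inside the gene span given above, and its match lies across that start. An interferon-stimulated response element, searched as GAAA, any 2 bases and GAAA again on both strands, was matched in windows of 2 of the 8 genes, Erap1 and Psme1, against 3.44% of all 32851 windows. The motif TTCNNNGAA, known as a GAS element, searched on both strands, was matched in 1, Psmb8, against 8.3% of all windows. The 3 matches are shown with their flanks on the plus strand, the strand of all 3 genes, with the matched bases in capitals, and the Erap1 and Psme1 matches read GAAA to GAAA on the other strand.
Erap1, match at chr13:74639849-74639858: accttcacTTTCACTTTCggtcccgg
Psme1, match at chr14:55578503-55578512: agctgtgcTTTCGCTTTCccttcccg
Psmb8, match at chr17:34198098-34198106: ctccgctgTTCCCAGAAgatgcccc
These are letter matches only. An NF-kB motif was matched in 0 of the 8 genes' windows (8.46% of all windows) and CCAAT in 3 (37.41% of all windows), which are those of Tapbp, Psmb9 and Tap1, the last 2 sharing 1 copy in the stretch between them.

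All 10 genes rose with LPS in chow by edgeR (quasi-likelihood, Benjamini-Hochberg adjusted p under 0.05), where 13.7% of all genes tested were called higher and 26.5% were called in either direction. In HFD all 10 rose as well, against 12.7% of all genes called higher. The median log2 fold change of the 10 was 2.30 in chow (range 1.48 to 3.36) and 2.28 in HFD (1.804 to 3.74), against medians over all tested genes of 0.00 and -0.002. For each of the 10 genes, and in each diet, every 24 h library lay above every 0 h library, as did 22.5% of all tested genes in chow and 18.2% in HFD. None of the 10 lay wholly below its 0 h libraries, as 22.9% of all tested genes did in chow and 17.2% in HFD. By estimate the change of Tap1 was the highest of the 10 and that of Erap1 the lowest in both diets, and Erap1 and Tapbp were within their errors of each other. In bulk RNA, fewer or more cells with a transcript and less or more of it per cell cannot be told apart.

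**Figure D1:**
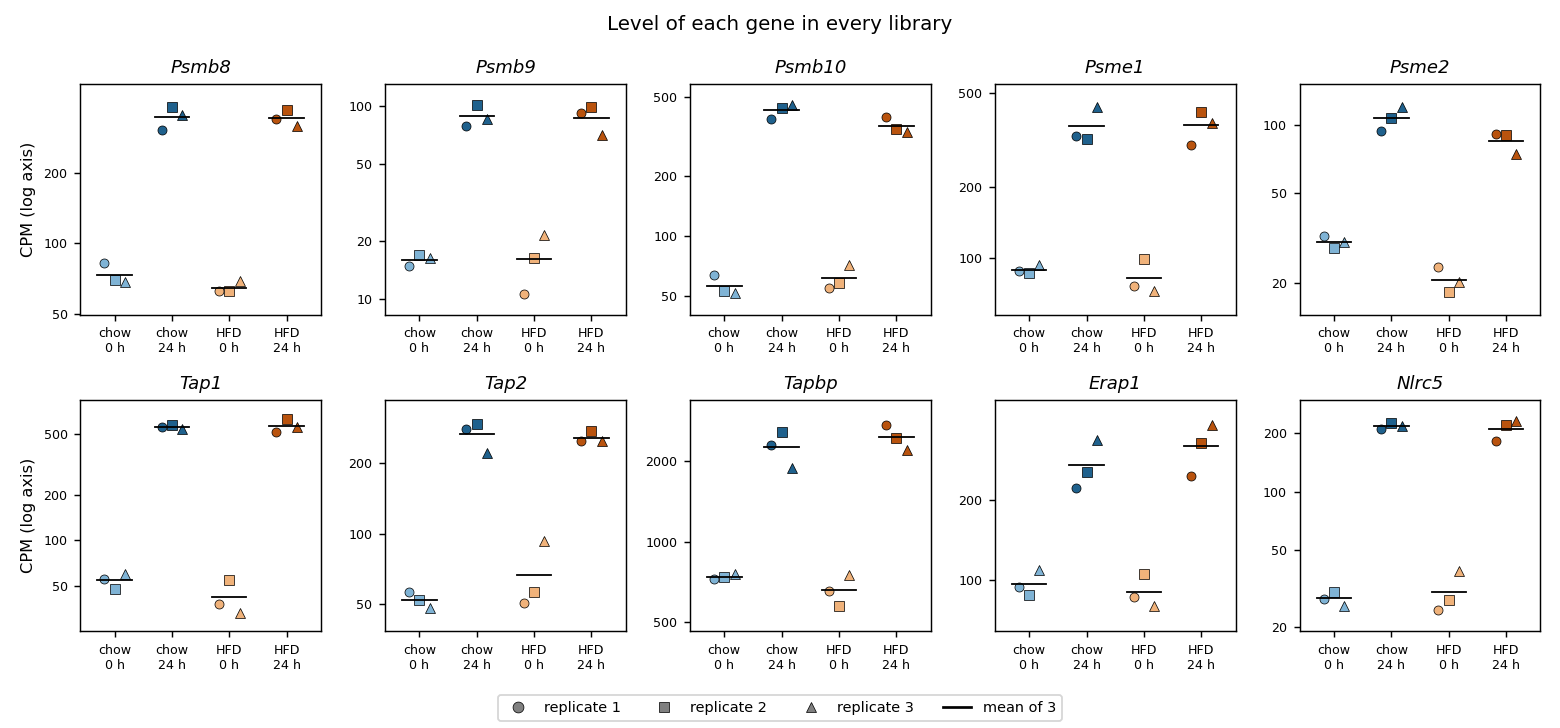
Level of each of the 10 genes in CPM (log axis, its own range in each panel) in the 12 libraries, with points for libraries, a symbol for each replicate and a bar at the mean of 3. The 24 h libraries stand above the 0 h libraries in every panel and diet, and Psme2 is the only panel in which all HFD libraries stand below all chow libraries at both times.

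Among the catalytic subunits, Psmb8, which replaces Psmb5 and keeps its chymotrypsin-like cutting, had 82.4, 69.5 and 68.6 CPM in replicates 1, 2 and 3 of chow 0 h and 307, 384 and 354 in chow 24 h. In HFD it had 62.2, 62.8 and 68.8 CPM at 0 h and 342, 373 and 317 at 24 h. The libraries of each group were close together, and those of the times were far apart. Its LPS change was 4.74-fold in chow (log2 2.24 ± 0.13 SE, edgeR adjusted p = 1.33e-09) and 5.35-fold in HFD (2.42 ± 0.14, 7.72e-10). Psmb9, which replaces the caspase-like subunit Psmb6, was the lowest of the 3 in every group, per kilobase too. It had 15, 16.9 and 16.4 CPM in chow 0 h and 79.3, 102 and 85.9 in chow 24 h, and in HFD 10.7, 16.4 and 21.6 at 0 h against 92.3, 98.9 and 71.1 at 24 h. HFD 0 h replicate 3 was its highest 0 h library, on 48 counts. Psmb9 rose 5.52-fold in chow (2.47 ± 0.20, edgeR adjusted p = 4.96e-08) and 5.71-fold in HFD (2.51 ± 0.21, 8.76e-08). Psmb10, the counterpart of the trypsin-like Psmb7, had 64.0, 53.4 and 51.8 CPM in chow 0 h and 387, 438 and 453 in chow 24 h. In HFD it had 54.8, 58.6 and 71.9 CPM at 0 h and 393, 344 and 332 at 24 h, so that the HFD libraries reached over the chow range at 0 h and overlapped its lower end at 24 h. Its change was 7.55-fold in chow (2.92 ± 0.15, edgeR adjusted p = 1.82e-10) and 5.83-fold in HFD (2.54 ± 0.15, 9.27e-10).

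The constitutive subunits that these 3 replace rose too, by less. In chow the log2 fold change was 0.73 ± 0.14 for Psmb5 (edgeR adjusted p = 0.000768), 0.62 ± 0.13 for Psmb6 (0.00196) and 0.92 ± 0.16 for Psmb7 (0.000259). In HFD it was 0.61 ± 0.14 (0.00427), 0.43 ± 0.13 (0.0266) and 1.12 ± 0.16 (4.67e-05). The ratio of each immunoproteasome subunit to its counterpart within a library does not depend on the scaling between libraries. For Psmb8 over Psmb5, the log2 ratio of CPM was 1.06, 0.90 and 0.85 in chow 0 h and 2.30, 2.42 and 2.63 in chow 24 h, and in HFD 0.46, 0.60 and 0.88 at 0 h and 2.23, 2.54 and 2.54 at 24 h. Within each diet the times did not overlap for any of the 3 pairs. Averaged over the diets, the 24 h libraries were higher by 1.65 on the log2 scale for Psmb8 over Psmb5, by 1.94 for Psmb9 over Psmb6 and by 1.69 for Psmb10 over Psmb7. In a two-sided exact permutation test of 12 libraries within diet, each of the 3 had p = 0.005, the smallest that its 400 assignments can give, and an adjusted p of 0.01 over the 6 ratio tests (3 pairs, LPS and diet). The corresponding differences of HFD against chow were -0.15, 0.08 and 0.14, with exact permutation p of 0.175, 0.655 and 0.61 and adjusted p of 0.2625, 0.655 and 0.655. By diet, the LPS differences in the log2 ratio were 1.52 in chow and 1.79 in HFD for Psmb8 over Psmb5, and 1.83 and 2.04 for Psmb9 over Psmb6. For Psmb10 over Psmb7 they were 2.02 and 1.37, and HFD 0 h replicate 3, at 0.61, was the highest 0 h library, where the other 5 ran from -0.54 to -0.07. Without that library, left out after the data had been seen, the HFD differences were 1.91, 2.32 and 1.65 for the 3 pairs in the same order. Averaged over the diets they were then 1.71, 2.07 and 1.83, each with an exact permutation adjusted p of 0.01. Whether the diets differ in these ratio changes was not tested.

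**Figure D2:**
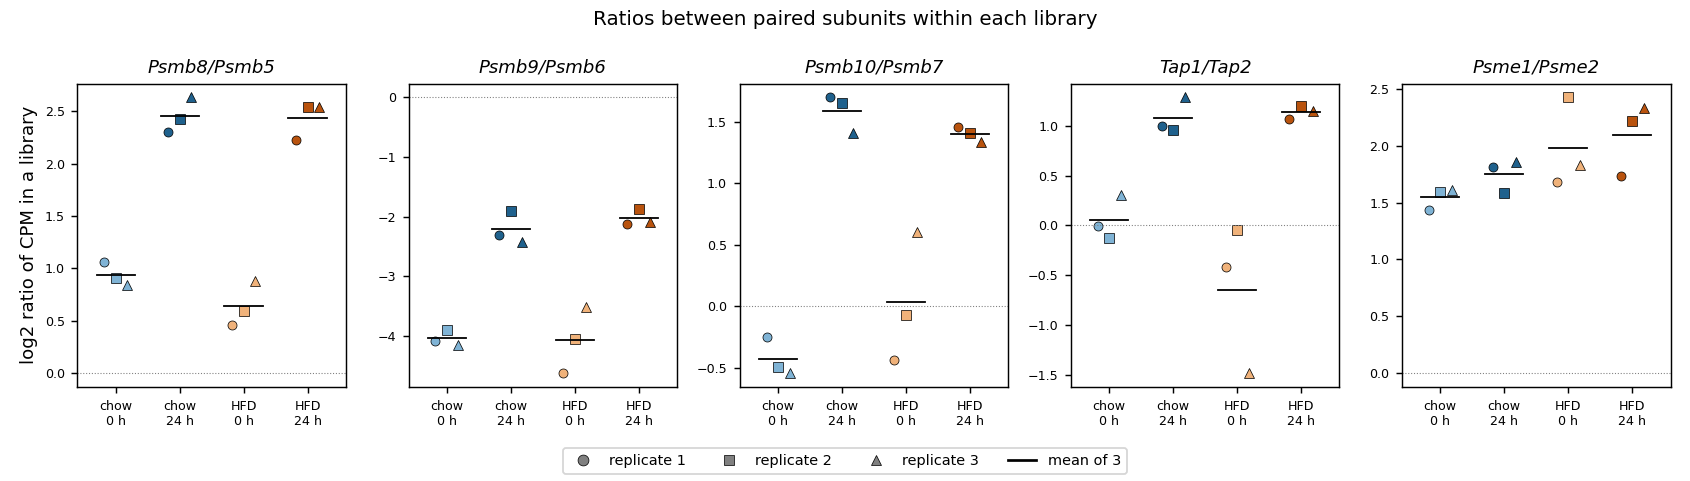
Log2 ratio of CPM within each library (vertical axis) for the 3 pairs of immunoproteasome and constitutive subunits, for Tap1 over Tap2 and for Psme1 over Psme2, by group, with points for libraries and bars at means of 3. The 24 h libraries are above the 0 h libraries of their diet in the first 4 panels and overlap them in the last.

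Per kilobase of transcript, which allows a comparison between genes, the 3 pairs differed in where they started and ended. Psmb8 was about level with Psmb5 in chow 0 h, at a ratio of 1.06 ± 0.08 (SD, n = 3), and at 3.04 ± 0.35 in chow 24 h, with 0.87 ± 0.13 and 3.01 ± 0.37 in HFD. Psmb10 went from below Psmb7 to above it in chow, with ratios of 0.66 ± 0.07 and 2.67 ± 0.28, and had 0.95 ± 0.36 and 2.34 ± 0.10 in HFD, where the 0 h mean was 0.75 without HFD 0 h replicate 3. Psmb9 transcripts remained far below those of Psmb6 in every library: the ratio was 0.0355 ± 0.0032 in chow 0 h and 0.129 ± 0.025 in chow 24 h, and 0.0366 ± 0.0139 and 0.145 ± 0.013 in HFD. Without HFD 0 h replicate 3 the HFD 0 h means were 0.80 for Psmb8 over Psmb5 and 0.0293 for Psmb9 over Psmb6. Transcript lengths were those of GENCODE M21, and how evenly the reads cover each transcript was not tested.

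Psme1 and Psme2 encode the alpha and beta subunits of the PA28 cap, which opens the proteasome's entry and speeds peptide release. Psme1 had 88.1, 86.7 and 93.5 CPM in chow 0 h and 330, 320 and 437 in chow 24 h, and in HFD 76.4, 99.2 and 72.4 at 0 h and 303, 417 and 376 at 24 h. The diets overlapped at both times. Its LPS change was 4.05-fold in chow (log2 2.02 ± 0.16, edgeR adjusted p = 6.2e-08) and 4.39-fold in HFD (2.13 ± 0.17, 4.15e-08). Psme2 had 32.4, 28.7 and 30.4 CPM in chow 0 h and 94.0, 107 and 120.2 in chow 24 h. In HFD it had 23.7, 18.4 and 20.2 CPM at 0 h and 91.3, 89.8 and 74.4 at 24 h. At each time, all 3 HFD libraries of Psme2 were below all 3 chow libraries. It rose 3.50-fold in chow (1.81 ± 0.15, edgeR adjusted p = 5.23e-08) and 4.08-fold in HFD (2.03 ± 0.15, 2.88e-08). The log2 ratio of Psme1 to Psme2 within a library had means of 1.55 ± 0.10 (SD, n = 3) in chow 0 h and 1.75 ± 0.15 in chow 24 h, and of 1.98 ± 0.39 and 2.09 ± 0.32 in HFD, with overlap between the times in both diets. Without HFD 0 h replicate 3 the HFD 0 h mean was 2.05. Psme2b, a near copy of Psme2 elsewhere in the genome that could take some of its reads, had 6 to 174 counts a library and log2 LPS changes of 0.17 ± 0.37 (edgeR adjusted p = 0.789) and 0.51 ± 0.38 (0.376).

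Other proteasome activators and assembly factors, a list of 8 genes, held 3 that rose in chow and 4 in HFD, and 0 that fell in either, with list medians of 0.38 and 0.37. The shares of all tested genes called higher, 13.7% in chow and 12.7% in HFD, stand beside this count and those of the lists below. Pomp, the chaperone of proteasome assembly, rose by log2 0.86 ± 0.16 in chow and 0.77 ± 0.16 in HFD (edgeR adjusted p = 0.000473 and 0.00146). Psme3, which forms the nuclear cap PA28 gamma, rose by 0.52 ± 0.12 and 0.35 ± 0.12 (0.00345 and 0.0426). Psme4, the cap protein PA200, rose by 0.43 ± 0.14 and 0.57 ± 0.14 (0.027 and 0.00492). Psmg2, an assembly chaperone, was at 0.17 ± 0.23 in chow (0.659) and rose by 0.77 ± 0.25 in HFD (0.032).

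Tap1 and Tap2 form the peptide transporter as a dimer, and in each diet the ratio of their transcripts was higher in the 24 h libraries. Tap1 had 55.8, 47.6 and 59.8 CPM in chow 0 h and 562, 573 and 542 in chow 24 h, and in HFD 37.9, 54.5 and 33.3 at 0 h and 521, 631 and 556 at 24 h. The lowest 24 h library, at 521 CPM, stood far above the highest at 0 h, at 59.8. Its LPS change was 10.3-fold in chow (log2 3.36 ± 0.17, edgeR adjusted p = 1.96e-10) and 13.3-fold in HFD (3.74 ± 0.18, 1.01e-10). In HFD the 95% interval of the Tap1 change, 3.37 to 4.11, lay above those of the other 9 genes, and in chow its interval of 3.002 to 3.72 overlapped those of Nlrc5 (2.61 to 3.30) and Psmb10 (2.61 to 3.23) only. Tap2 had 56.1, 52.0 and 48.1 CPM in chow 0 h and 280, 295 and 222 in chow 24 h. In HFD it had 50.7, 56.2 and 93.5 CPM at 0 h and 248, 274 and 249 at 24 h, with the shallow HFD 0 h replicate 3 far above the other 0 h libraries, on 208 counts. Tap2 rose 5.10-fold in chow (2.35 ± 0.19, edgeR adjusted p = 5.3e-08) and 3.96-fold in HFD (1.98 ± 0.19, 4.97e-07). Without HFD 0 h replicate 3 the HFD changes were 3.63 for Tap1 and 2.27 for Tap2 (1.84e-09 and 3.63e-08).

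The log2 ratio of Tap1 to Tap2 within a library, looked at after the single genes had been seen and therefore not tested, was -0.01, -0.13 and 0.31 in chow 0 h and 1.004, 0.957 and 1.29 in chow 24 h. The HFD libraries had -0.42, -0.04 and -1.49 before LPS and 1.07, 1.204 and 1.16 after it. The times did not overlap in either diet, and the 6 libraries at 24 h lay within 0.96 to 1.29. The change in HFD was 1.79, and 1.37 without HFD 0 h replicate 3, against 1.02 in chow. Tap1 also moved more than Psmb9, with which it shares the stretch printed above: the mean log2 ratio of Tap1 to Psmb9 was 1.74 ± 0.23 (SD, n = 3) in chow 0 h and 2.66 ± 0.17 in chow 24 h, and 1.39 ± 0.66 and 2.71 ± 0.24 in HFD, again with no overlap between the times. The change was 0.92 in chow and 1.33 in HFD, and 0.94 in HFD without HFD 0 h replicate 3, the 0 h mean then being 1.77.

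Tapbp encodes tapasin, which bridges the transporter and class I molecules and edits their peptides. It had the highest levels of the 10 genes, per kilobase too, with 727, 737 and 753 CPM in chow 0 h and 2296, 2574 and 1892 in chow 24 h, and in HFD 652, 573 and 747 at 0 h and 2719, 2437 and 2204 at 24 h. By estimate its fold was smaller than those of the other genes except Erap1, at 3.05 in chow (log2 1.61 ± 0.14, edgeR adjusted p = 2e-07) and 3.74 in HFD (1.90 ± 0.15, 3.24e-08). Erap1, which shortens precursors to the length that class I molecules hold, had 93.7, 87.4 and 109 CPM in chow 0 h and 221, 253 and 334 in chow 24 h. In HFD it had 86.2, 105 and 79.6 CPM at 0 h and 246, 326 and 380 at 24 h. The libraries of each 24 h group spread more widely than those at 0 h, and the diets overlapped. Erap1 rose 2.79-fold in chow (1.48 ± 0.18, edgeR adjusted p = 8.59e-06) and 3.49-fold in HFD (1.804 ± 0.187, 1.18e-06). Cast, a gene that overlaps the end of Erap1, was not called, at -0.29 ± 0.12 (0.0952) and -0.13 ± 0.12 (0.487), and the sources used here do not say whether the authors' counting used strand.

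Of 5 further loading chaperones and partners, 2 rose in chow and 4 in HFD, and 0 fell, with list medians of 0.24 and 0.46. B2m, the light chain of class I molecules, rose by log2 1.45 ± 0.25 in chow and 1.59 ± 0.25 in HFD (edgeR adjusted p = 0.000285 and 0.00013). Tapbpl, or TAPBPR, the tapasin relative that edits peptides outside the loading complex, rose by 2.76 ± 0.16 and 2.77 ± 0.17 (1.03e-09 and 1.74e-09). Calreticulin (Calr) was at 0.24 ± 0.14 in chow (0.224) and rose by 0.46 ± 0.14 in HFD (0.0189), and its partner disulfide isomerase Pdia3 was at 0.21 ± 0.11 (0.206) and rose by 0.45 ± 0.11 (0.0064). Canx, the membrane-bound calnexin, was not called in either diet, at -0.31 ± 0.13 (0.1) and 0.10 ± 0.13 (0.627). Of 8 cytosolic peptidases, which trim or destroy peptides outside the endoplasmic reticulum, 1 rose in each diet and 0 fell: the leucine aminopeptidase Lap3, by 1.49 ± 0.20 in chow and 1.74 ± 0.21 in HFD (2.29e-05 and 6.4e-06). The list medians were 0.09 and 0.07, and of all tested genes 13.7% in chow and 12.7% in HFD were called higher.

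**Figure D3:**
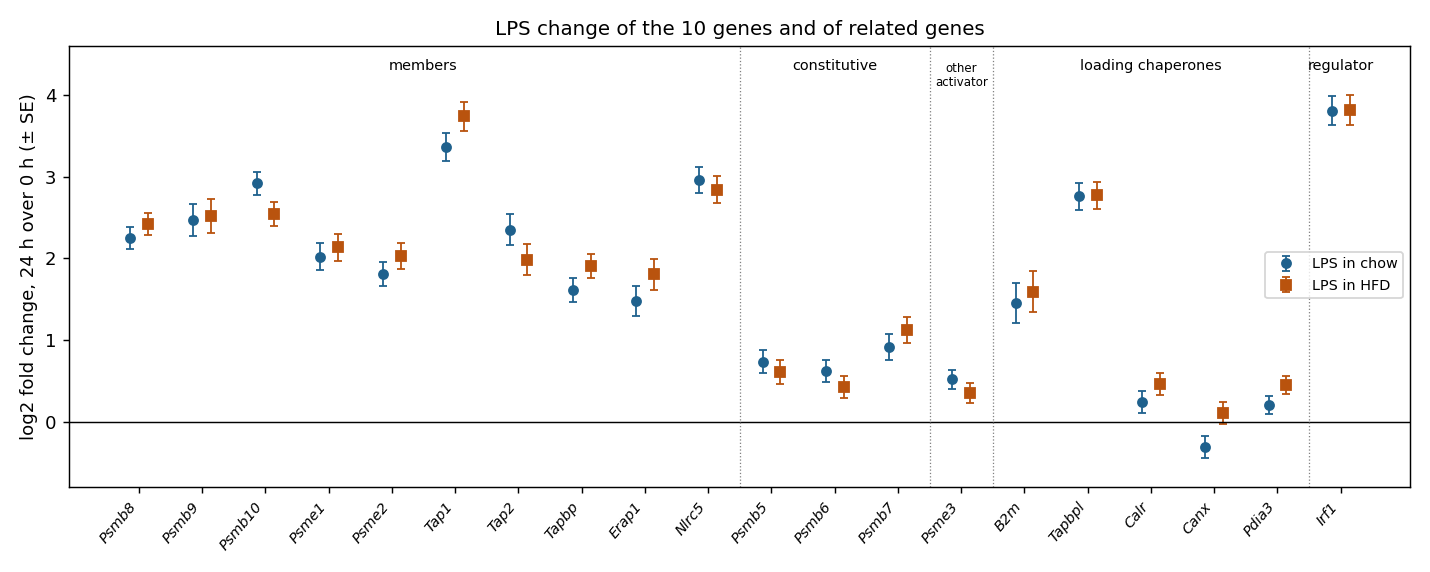
Log2 fold change from 0 h to 24 h with its SE (vertical axis) for the 10 genes and for related genes, in chow (circles) and in HFD (squares). The 10 genes lie between 1.48 and 3.74, the constitutive subunits between 0.43 and 1.12, and Irf1 at 3.81 and 3.82.

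Nlrc5, the class I transactivator, had 28.1, 30.6 and 25.9 CPM in chow 0 h and 211, 226 and 219 in chow 24 h, and in HFD 24.6, 27.8 and 39.1 at 0 h and 182, 220 and 230 at 24 h. The chow libraries of each time were close together, and the HFD libraries lay on both sides of them. Its LPS change was 7.75-fold in chow (log2 2.95 ± 0.16, edgeR adjusted p = 4.84e-10) and 7.16-fold in HFD (2.84 ± 0.17, 1.11e-09). The RNA gene 9330175E14Rik, which overlaps the start of Nlrc5, had 0 to 26 counts at 0 h and 116 to 272 at 24 h, with log2 changes of 3.03 ± 0.35 (edgeR adjusted p = 4.64e-06) and 2.69 ± 0.41 (7.83e-05), so without known strand the reads of the overlap cannot be told apart.

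Of 12 transcriptional regulators of this pathway, 10 rose in each diet and 0 fell, with list medians of 0.80 in chow and 0.95 in HFD. Irf1, an interferon regulatory factor that acts on several of these promoters, rose by log2 3.81 ± 0.18 in chow and 3.82 ± 0.18 in HFD (edgeR adjusted p = 8.62e-11 and 1.09e-10). Stat2, a transcription factor of type I interferon signalling, rose by 2.46 ± 0.15 and 2.96 ± 0.16 (1.33e-09 and 2.89e-10). Irf9, a DNA-binding partner of Stat2, rose by 0.91 ± 0.13 and 1.34 ± 0.13 (3.62e-05 and 8.38e-07). Rfx5, which binds class I and class II promoters, rose by 1.36 ± 0.21 and 1.26 ± 0.22 (9.19e-05 and 0.00037). Its partners Rfxap and Rfxank were not called in either diet, at 0.12 ± 0.23 and 0.20 ± 0.24 for Rfxap (0.769 and 0.618) and -0.07 ± 0.15 and -0.06 ± 0.15 for Rfxank (0.794 and 0.833).

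Of 7 interferon ligands and receptors, 5 passed the filter, of which 3 rose and 1 fell in each diet. Ifng, or interferon gamma, the classical inducer of the immunoproteasome, had 0 counts in all 6 libraries at 0 h. At 24 h it had 3.58, 2.69 and 12.5 CPM in chow and 2.22, 3.75 and 6.05 CPM in HFD. Against a floor of 3 counts over the group at 0 h, Ifng was at least 77.2-fold higher in chow (edgeR adjusted p = 0.000185) and at least 27.8-fold higher in HFD (0.00164), where the floor covers counting error only. The chow bound rests largely on replicate 3 at 24 h: it was 38.7-fold without that library and 93.7-fold and 99.2-fold without replicates 1 and 2, and the HFD bound ran from 20.7-fold to 34.0-fold with 1 library left out, all computed after the data had been seen. The type I receptor chains Ifnar1 (log2 0.42 ± 0.13 in chow and 0.85 ± 0.13 in HFD, edgeR adjusted p = 0.0195 and 7.56e-05) and Ifnar2 (1.22 ± 0.12 and 1.32 ± 0.12, 8.35e-07 and 3.96e-07) rose, Ifngr1 fell (-0.94 ± 0.15 and -0.90 ± 0.15, 0.000121 and 0.000199) and Ifngr2 was not called (0.04 ± 0.13 and 0.18 ± 0.13, 0.852 and 0.373). The 5 NK cell markers, from cells that make interferon gamma, summed to 0.872 to 1.66 CPM in chow 0 h and 2.88 to 3.81 in chow 24 h, and to 0.729 to 2.25 and 0.712 to 2.69 in HFD. Klre1, one of them, had 0 counts in every 0 h library and only 0 to 3 at 24 h. Most of the chow difference was in Prf1, with 0 to 2 counts at 0 h and 22 to 29 at 24 h. In HFD, Prf1 (perforin) had 0 or 1 count at 0 h and 2 to 27 at 24 h. It was the only NK cell marker to pass the filter and rose in both diets (edgeR adjusted p = 0.00147 and 0.0345). Mean levels of Ncr1 at 0 h and 24 h were 0.19 and 0.38 CPM in chow and 0.07 and 0.39 in HFD. Those of Eomes were 0.16 and 0.53 CPM in chow and 0.04 and 0.23 in HFD. Klrb1c, or NK1.1, had lower mean levels at 24 h, at 0.71 and 0.28 CPM in chow and 1.10 and 0.21 CPM in HFD. It had only 1 to 15 counts a library. The 5 T cell markers gave 3.57 to 5.24 CPM in chow 0 h, 3.58 to 4.67 in chow 24 h, 1.798 to 4.12 in HFD 0 h and 1.57 to 5.32 in HFD 24 h. Of these, the kinase gene Lck rose in HFD (log2 1.83 ± 0.63, edgeR adjusted p = 0.0416) and was at 0.67 ± 0.48 in chow (0.352), while Cd2 was at -0.33 ± 0.59 in chow (0.742) and -1.33 ± 0.65 in HFD (0.153), and Cd3e at -1.77 and 1.95 (0.213 and 0.323). The part of these cells in the Ifng counts or in the changes of the 10 genes was not tested.

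With the lane tag as a covariate, a fit that rests on HFD 24 h replicate 1, all 10 genes were still called in chow. Their log2 changes then ran from 1.38 for Tapbp (edgeR adjusted p = 0.00201, the largest of the 10) to 3.55 for Tap1, with Erap1 at 2.001.

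Per kilobase of transcript, the order of the 10 genes was alike in all groups at its ends. Tapbp was first, with 255 ± 4.5 CPM per kb (SD, n = 3) in chow 0 h and 778 ± 118 in chow 24 h, and 227 ± 30.0 and 847 ± 89.1 in HFD. Psme1 came second, with 80.4 ± 3.2 and 326 ± 58.2 in chow and 74.3 ± 13 and 329 ± 51.7 in HFD, and its libraries overlapped those of no neighbour in the order at 0 h. At 24 h the libraries of Psme1 overlapped those of Psmb10, at rank 3, in both diets (325 ± 26.4 in chow and 272 ± 24.9 in HFD). Psmb8 and Psmb10 held ranks 3 and 4 at 0 h, with 45.1 ± 4.7 and 43.0 ± 5.1 in chow and 39.7 ± 2.2 and 47.1 ± 6.9 in HFD, and did not separate beyond their spread. Psme2 ranked 5 at 0 h, with 31.7 ± 1.9 in chow and 21.6 ± 2.8 in HFD, and 6 at 24 h, with 111 ± 13.6 and 88.6 ± 9.7, behind Tap1 at 189 ± 5.4 and 193 ± 19.0. Before LPS, Tap1 (18.4 ± 2.1), Erap1 (17.1 ± 2.0) and Tap2 (15.1 ± 1.2) were close together in chow, as they were in HFD (14.2 ± 3.8, 16 ± 2.4 and 19.4 ± 6.8). After LPS they lay apart, with Tap2 at 77.2 ± 11.3 and 74.7 ± 4.1 and Erap1 at 47.7 ± 10.3 and 56.2 ± 12 in chow and HFD. Psmb9 had 11.9 ± 0.7 CPM per kb in chow 0 h and 65.8 ± 8.5 in chow 24 h, with 12 ± 4.0 and 64.7 ± 10.8 in HFD. Nlrc5 was last in all 4 groups, with 4.06 ± 0.33, 31.5 ± 1.1, 4.39 ± 1.1 and 30.4 ± 3.7 at 0 h and 24 h of chow and then of HFD.

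Between the diets, 0 of the 10 genes passed edgeR's test at 0 h, where 0.087% of all tested genes (11) were called, and 0 at 24 h, where 0.00791% (1) were. At an unadjusted p under 0.05, 2 of the 10 (Psme2 and Tap1) passed at 0 h and 1 (Psme2) at 24 h. Of all 12638 tested genes, 778 passed at that unadjusted level at 0 h and 993 at 24 h. DESeq2 and limma-voom called 0 of the 10 at either time. The median log2 difference of HFD over chow was -0.10 at 0 h and -0.02 at 24 h, against 0.002 and 0.003 over all tested genes. Over the 10 genes, the unadjusted 95% intervals reached at most from -0.87 to 0.72 at 0 h and from -0.62 to 0.61 at 24 h, so a diet difference of 2-fold lay outside them for each gene at each time. This does not show that the diets were alike. The fit behind these intervals had no lane term, and at 24 h all chow libraries and 1 HFD library carry the lane tag.

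**Figure D4:**
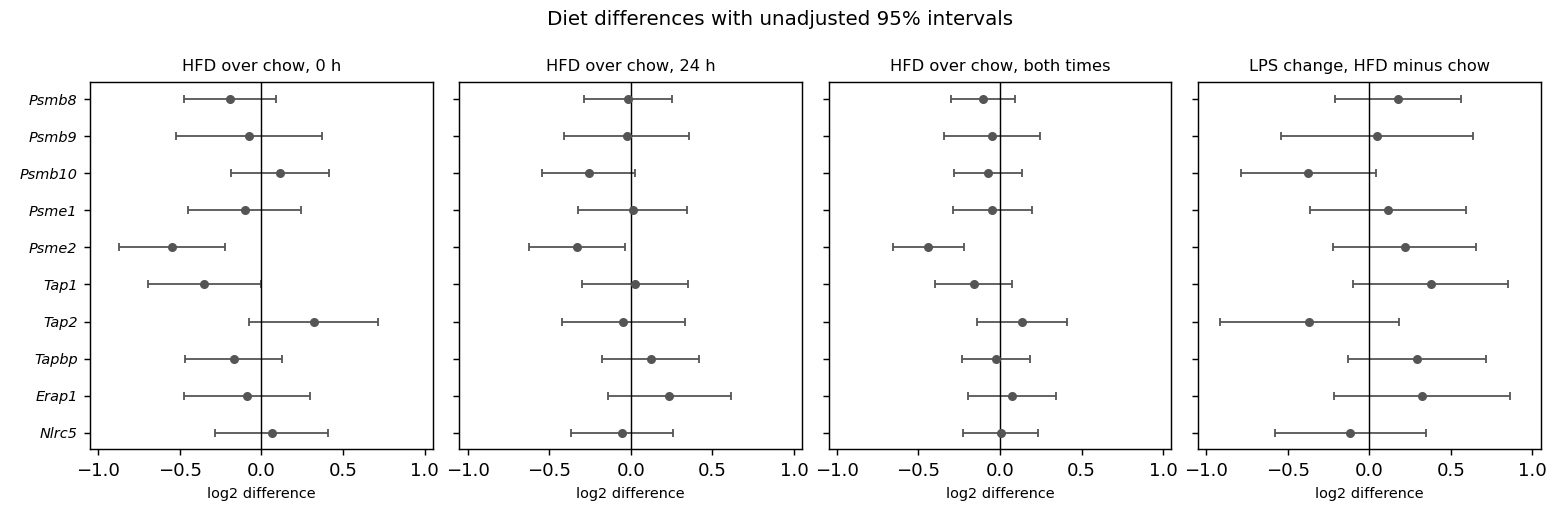
Log2 difference of HFD over chow (horizontal axis) at 0 h, at 24 h and averaged over both, and the difference of the LPS changes (HFD minus chow), with unadjusted 95% intervals for the 10 genes. The Psme2 interval lies below 0 in the first 3 panels, and all 10 intervals include 0 in the last.

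Psme2 was the member with the largest diet difference. It was lower in HFD by log2 -0.55 ± 0.15 at 0 h (unadjusted 95% interval -0.87 to -0.22, edgeR adjusted p = 0.348) and by -0.33 ± 0.14 at 24 h (-0.62 to -0.04, 0.609). The groups did not overlap at either time, as in 6.36% of all tested genes at 0 h and 5.98% at 24 h in the lower direction. In the higher direction, 0 of the 10 genes had groups that did not overlap, against 5.86% of all tested genes at 0 h and 6.27% at 24 h. Averaged over both times its difference was -0.44 ± 0.10 (-0.66 to -0.22, edgeR adjusted p = 0.0762), in a comparison where 0.483% of all tested genes (61) passed. DESeq2 called it there, at -0.44 with an adjusted p of 0.0138, where DESeq2 called 262 of all 12638 tested genes. Over the 21 alternatives the adjusted p of Psme2 ran from 0.0138 to 0.375. None of the other 9 genes passed in that average by any setting. At 24 h all chow libraries and 1 HFD library carry the lane tag, and with the tag as a covariate the Psme2 difference was -0.23 at 24 h and -0.39 averaged (edgeR adjusted p = 0.999 and 0.375). Psme1, its partner in the cap, differed by -0.10 ± 0.16 (0.983) at 0 h and 0.01 ± 0.16 (0.991) at 24 h.

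For the other genes the sign of the diet difference varied. Tap1 was at -0.35 ± 0.16 at 0 h (unadjusted 95% interval -0.70 to -0.004, edgeR adjusted p = 0.805) and at 0.03 ± 0.15 at 24 h (0.985), while Tap2 was at 0.32 ± 0.19 (0.88) and -0.05 ± 0.18 (0.979). Without HFD 0 h replicate 3 the 0 h values were -0.24 for Tap1 and 0.03 for Tap2. Psmb10 was at 0.11 ± 0.14 at 0 h (0.983) and -0.26 ± 0.13 at 24 h (0.667), and Erap1 at -0.09 ± 0.18 (0.984) and 0.24 ± 0.18 (0.796). Psmb8, Psmb9, Tapbp and Nlrc5 ran from -0.19 to 0.06 at 0 h and from -0.05 to 0.12 at 24 h.

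The LPS responses of the diets were compared by the interaction, which tests the difference of the 2 LPS changes itself. By edgeR 0 of the 10 genes passed, none of them at an unadjusted p under 0.05 either, and 0% of all tested genes (0) did, with 297 at an unadjusted p under 0.05. DESeq2 and limma-voom called 0 of the 10. The LPS change was larger in HFD by an estimate of 0.38 ± 0.22 for Tap1 (unadjusted 95% interval -0.10 to 0.85) and of 0.33 ± 0.26 for Erap1 (-0.21 to 0.87), and smaller by -0.37 ± 0.20 for Psmb10 (-0.79 to 0.04) and by -0.37 ± 0.26 for Tap2 (-0.91 to 0.18). Each edgeR adjusted p was 0.9998. Over the 21 alternatives the estimate ran from 0.25 to 0.63 for Tap1 and from -0.04 to 0.52 for Erap1. For Psmb10 it ran from -0.48 to -0.23 and for Tap2 from -0.54 to -0.07. The Tap2 estimate was -0.07 without HFD 0 h replicate 3. None of the 43 other genes of the 6 pathway lists passed in any of the diet comparisons by edgeR, and Ifnb1 and Ifna4 among them were not tested. In HFD over chow at 0 h, Stat2 was at log2 -0.66 ± 0.15 and Irf9 at -0.56 ± 0.13 (edgeR adjusted p = 0.172 and 0.22). Of the 12 regulators, 8 were below 0 there and 4 above.

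Across the 12 libraries the log2 CPM of the 10 genes followed each other, with pairwise Pearson r between 0.912 (Tap2 and Erap1) and 0.992. All such values share the step between the times, and they are given as a description. The 5 other genes nearest to the mean of the 10 were Gbp6 (0.998), Gbp5 (0.997), H2-Q4 (0.997), Irf1 (0.997) and Irgm2 (0.997), where near-identical class I genes may share reads with H2-Q4. Nlrc5 was nearest to Gbp5 (0.998), Batf2 (0.996) and Parp12 (0.996), and Erap1 to Hif1a (0.994), Lap3 (0.991) and Ift57 (0.990).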

How the data were processed

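RNA from peritoneal macrophages had been extracted with a Qiagen kit and made into libraries with a NuGen Ovation kit, per the labels' protocols. CASAVA 1.8.2, STAR 2.5.2b and the build mm10 are named in the submitters' processing notes. The sources used here name no counter or annotation and do not say whether strand was used. The authors deposited raw counts, whole and not normalized, for 35745 RefSeq transcripts in 12 columns. Symbols came from a RefSeq gene table (35440) and a GENCODE table (188), and 117 identifiers without one were kept. Isoforms of a gene share reads in these counts, so a single transcript, the one with the highest mean, stood for each of the 24558 genes.

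Counts were filtered with filterByExpr, scaled by TMM and fitted in edgeR 4.0.16 (R 4.3.3, robust glmQLFit, then glmQLFTest) in 1 model of 4 group means over 12 libraries, with Benjamini-Hochberg adjustment over 12638 genes at 0.05. Biological variation between replicates had a common coefficient of 18%. The SE is the log2 fold change divided by the square root of F, and intervals are built from it. Counts of replicate libraries differed by more than sampling noise, so all 12 were kept apart. The p-values thus measure no more than the spread between the libraries, part of which may be technical. CPM used TMM-scaled totals, with a prior count of 2 for log2 values. Alternatives were upper-quartile and median-ratio scaling, a filter of 1 CPM in 3 libraries, no filter, transcript sums, a prior count of 0.5, DESeq2 1.42.0, limma-voom (limma 3.58.1), the groups compared alone, a replicate block, the lane tag as a covariate and each library left out, with the HFD ratio changes and the Ifng bounds without a library added after the data had been seen.

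The genes and the lists (6 of pathway genes and 10 of cell markers, with 43 and 58 genes) were chosen with earlier results of these data known. The rule for named genes took all 10 genes in every comparison, up to 4 called genes a list with the smallest adjusted p, some genes whatever their result (Psmb5, Psmb6, Psmb7, Psme3, Irf1 and B2m) and the nearest profiles. Irf9, Rfxap, Rfxank, Ifngr2, Canx, Calr and Pdia3 in chow, Psmg2 in chow and genes that overlap or copy a member were named outside it, and 1 gene that it names is not reported here. Nrdc was matched under its older symbol Nrd1, and Trac was not matched. Over the 4 groups in order (chow 0 h, chow 24 h, HFD 0 h, HFD 24 h), summed marker levels in CPM not given above were 14280 to 15600, 9660 to 10880, 14100 to 15710 and 9968 to 12470 for macrophages, and 643 to 731, 193 to 215, 675 to 864 and 258 to 310 for large peritoneal macrophages, mostly Cd93. Dendritic cell markers, mostly Itgax, gave 648 to 895, 237 to 266, 511 to 753 and 152 to 369, and neutrophil markers, mostly S100a8 and Retnlg, 18.9 to 20.6, 36.4 to 66.4, 13.5 to 16.7 and 22.8 to 36.3. Mast cell, eosinophil and mesothelial markers gave at most 22.0, 25.1 and 24.1 in any library. Among the large peritoneal macrophage markers, Cd93 had a mean of 662 CPM in chow 0 h, where Gata6 had 13.1 and Timd4 0.99 CPM. In chow 24 h, Cd93 had 154 CPM, Gata6 11.0 and Timd4 4.12. Prg4 had 9.28 CPM in chow 0 h and 29.2 in chow 24 h. By edgeR 2 of these 7 markers rose with LPS in each diet and 1 fell. Of all tested genes, 13.7% were called higher and 12.9% lower in chow, and 12.7% and 11.9% in HFD.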

Additional observations from a re-analysis of the deposited data

How the results depend on the processing

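The 10 LPS calls held in all 220 values from alternatives in each diet (log2 1.30 to 3.55 in chow and 1.68 to 3.99 in HFD), and no diet or interaction call was gained in 220, 220 and 210 values at 0 h, at 24 h and for the interaction. Averaged over times, 1 of 210 values was a call: with DESeq2 1 of the 10 genes, Psme2, passed (log2 -0.44). Counts over all genes moved more. With the lane tag 1509 genes passed for LPS in chow against 3355. For diet at 0 h 11 genes passed, and 23 with no filter, 66 with DESeq2, 18 with the replicate block and 7 to 25 on leaving out 1 library (7 without chow 0 h replicate 2, 25 without HFD 24 h replicate 2). At 24 h 1 passed, and 10 with no filter, 43 with DESeq2, 10 with limma-voom, 0 with the lane tag, 0 with only the groups compared and 0 to 4 with 1 library left out (4 without HFD 0 h replicate 3). For the interaction 0 passed, and 3 with no filter, 9 with DESeq2, 4 with the replicate block and 0 to 3 with 1 library left out (3 without chow 24 h replicate 3 or HFD 0 h replicate 2). For diet averaged over times 61 passed, and 98 with no filter, 262 with DESeq2, 4 with the lane tag and 26 to 137 with 1 library left out (26 without chow 0 h replicate 2, 137 without chow 24 h replicate 3). The cause was not tested. The labels' numbers 1, 2 and 3 recur at both times in chow and 4, 6 and 7 in HFD. The replicate block used these numbers for the LPS changes and the interaction. For the diet comparisons it matched chow and HFD libraries by replicate order, a match that the labels do not give. Same-numbered libraries of 0 h and 24 h had deviations correlated at 0.301, 0.091 and 0.346 in chow and 0.055, 0.263 and 0.03 in HFD, against -0.308 to 0.109 for other pairs within a diet. Not every library correlated best with its own number (exceptions were chow 24 h replicate 2, HFD 0 h replicate 3 and HFD 24 h replicate 1), and the numbers were not taken to pair the libraries. With the replicate block, the ratio changes of 1.65 (Psmb8 over Psmb5), 1.94 (Psmb9 over Psmb6) and 1.69 (Psmb10 over Psmb7) had exact adjusted p of 0.0625, since 64 sign changes allow no raw p under 0.03125. HFD 0 h replicate 3 had 45 to 208 counts for Psme2, Psmb9, Tap1 and Tap2.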
